A study of Mus musculus with 16 samples.

Results

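Neutrophil granulocytes and cytotoxic lymphocytes carry their effector proteins ready-made, and 10 genes for such proteins were followed in the newborn mouse brain: Elane, Mpo, Ltf, Lcn2, Camp, Ngp, S100a8, S100a9, Lrg1 and Gzma. They are 10 of the 45616 genes and features on the array, and 11 probes of the array name them. The genes were chosen with their levels in these same animals already known. Their levels and the differences between the groups are therefore given as a description, with no p-value for any of them.

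Each array held total RNA from the brain of 1 C57BL/6 neonate at postnatal day 1, with 4 neonates in each of 4 groups. The first group came from fresh spermatozoa, the second from freeze-dried (FD) spermatozoa, the third from FD spermatozoa that had received 5 Gy of X-rays, and the fourth from FD spermatozoa kept at 95 °C for 1 h. The groups are called fresh, FD, irradiated and heated below; the sperm was treated, not the neonates. All 16 arrays were of the Agilent 1-colour type. The labels do not say whether neonates shared a litter, so p-values below measure only the spread among these samples.

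Neutrophils form their granules in waves while they mature in the marrow and, before and around birth, in the liver. Primary granules hold proteases and myeloperoxidase, secondary granules hold antimicrobial and metal-binding proteins, and the cytosol is packed with the calcium-binding pair S100a8 and S100a9. Cytotoxic T cells and natural killer cells kill with granzymes delivered through perforin. The healthy brain has few of either cell type in its tissue, but blood vessels, meninges and skull marrow hold them.

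The labelled tissue was checked first. All 10 neuron markers and all 13 microglia markers on the array were well above background on all 16 arrays. On single arrays other tissue showed: the keratin gene Krt14 stood at 2.49 on FD 2 against -3.73 to -3.06 on the other arrays, and the muscle actin gene Acta1 at 1.77 on fresh 1 against -1.59 to -1.07. The hindbrain gene Hoxb5 lay between -7.75 and -6.05 on fresh 2, FD 2, heated 2 and heated 4 and between -1.61 and 1.12 on the others. Slides crossed the groups only in part. All FD arrays were on slide 1 and all heated arrays on slide 2, while fresh 1 and 2 and irradiated 1 and 2 were on slide 1 and their arrays 3 and 4 on slide 2. FD and heated arrays shared no slide. Of the spots on each array, 59.9% to 66.1% were well above background.

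A level below is the log2 processed signal minus the 75th percentile of its array, so that 0 is a signal at that percentile and a difference of 1 is a doubling. Levels are compared between animals, not between genes, because each probe has its own brightness. In bulk brain RNA, fewer cells of a type and less RNA per cell cannot be told apart.

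Of the 10 genes, 8 were bright enough to be tested: Elane, Ltf, Lcn2, Camp, S100a8, S100a9, Lrg1 and Gzma passed the scanner's background flag throughout at least 1 group. Elane, Lcn2, Camp, S100a8 and S100a9 passed it on all 16 arrays, Lrg1 and Gzma on 14, and Ltf on 10. Mpo passed on 5 arrays and Ngp on 1, and both stayed out of the fit.

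S100a8 and S100a9, whose products pair as calprotectin, had, after Ltf, the largest spread within groups among the 8 tested genes. S100a8 (chromosome 3, 90669071 to 90670034 in GRCm38.p6) stood at -3.34, -1.25, -2.92 and -2.93 on fresh 1 to 4 and at -1.98, -2.55, -2.40 and -1.07 on FD 1 to 4. It stood at -2.67, -2.48, -2.79 and -1.87 on irradiated 1 to 4 and at -3.27, -3.24, -2.64 and -3.14 on heated 1 to 4. FD 4 and fresh 2 were the highest of the 16 arrays, and every heated array lay below every FD array. The heated mean was -3.07 ± 0.29 and the FD mean -2.0 ± 0.67 (SD, n = 4 each), a difference of -1.07 with a standard error (SE) of 0.41, or 2.1-fold. It was -0.88 (SE 0.6) with slide as a block, and -0.76 without fresh 2 and FD 4. The fresh mean was -2.61 ± 0.93, and without fresh 2 the other fresh arrays lay in the range of the heated ones and just below it.

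S100a9 (chromosome 3, 90692630 to 90695721) followed the same order of animals. Its levels were -0.95, 0.65, -0.82 and -0.79 on fresh 1 to 4 and -0.07, -0.53, -0.34 and 0.90 on FD 1 to 4. They were -0.50, -0.39, -0.59 and 0.00 on irradiated 1 to 4 and -1.33, -1.24, -0.54 and -0.89 on heated 1 to 4. Again FD 4 and fresh 2 were highest, and the heated and FD arrays did not overlap. Heated minus FD was -0.99 (SE 0.35), 1.99-fold, and -0.74 (SE 0.51) with slide as a block. It fell to a size of 0.69 (-0.69) with both fresh 2 and FD 4 left out. Over the 16 arrays S100a8 and S100a9 correlated at r = 0.98 (Spearman's rho 0.98), and at 0.96 without those arrays. All correlations here are descriptions over arrays that share slides and groups.

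**Figure D1:**
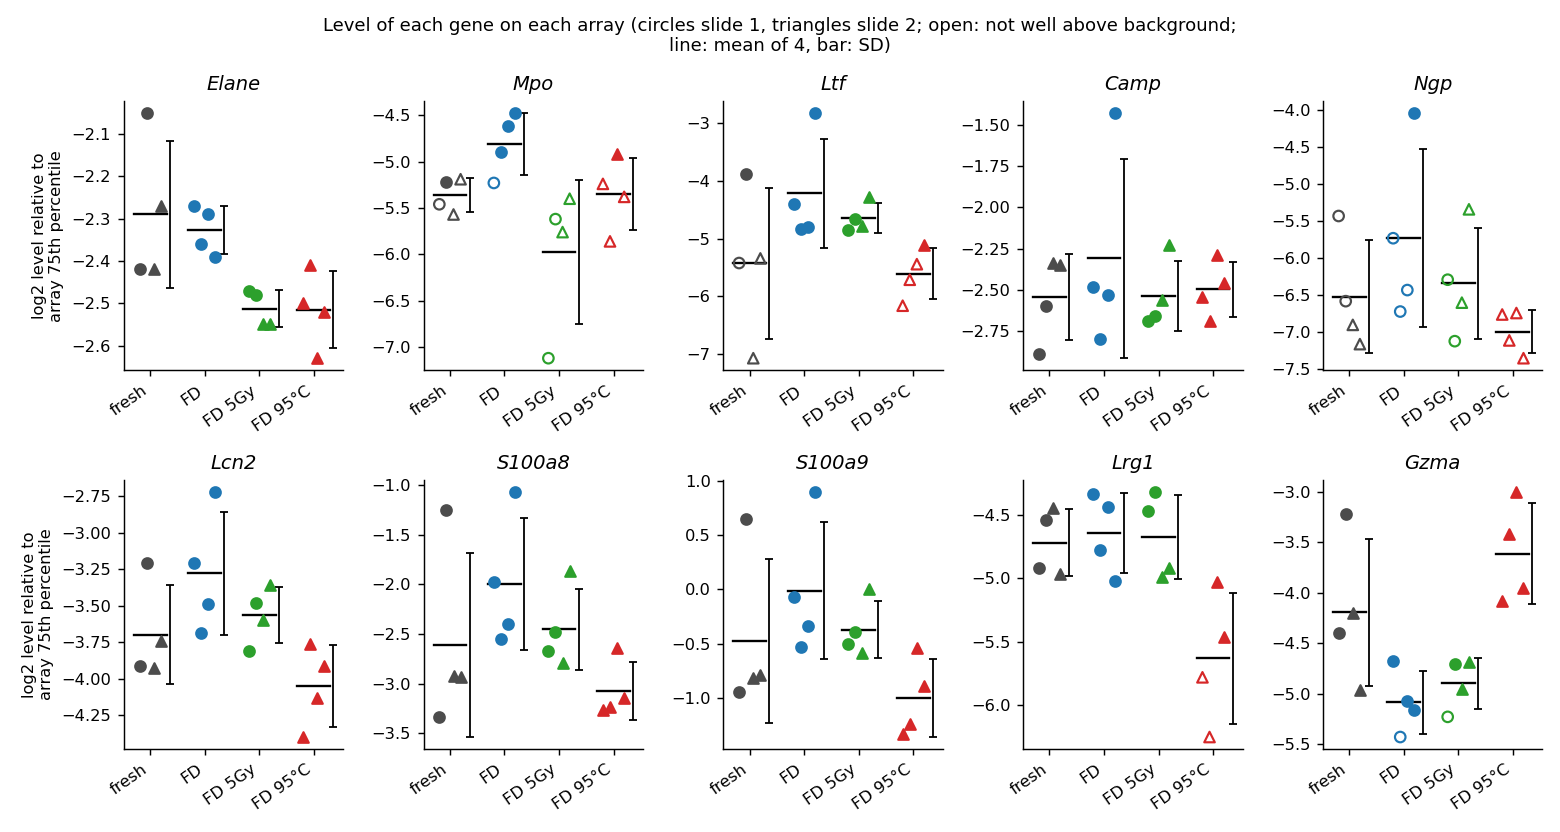
Log2 level relative to the array's 75th percentile (vertical axis) of the 10 genes on the 16 arrays, by group (horizontal axis). Circles are arrays of slide 1 and triangles of slide 2, open symbols were not well above background, lines are means of 4 and bars are SD. S100a8, S100a9, Lcn2 and Ltf are high on FD 4 and fresh 2, and all heated arrays lie above all FD and irradiated arrays for Gzma.

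The secondary granule genes Ltf and Lcn2 varied together with this pair. Ltf, which encodes the iron-binding protein lactoferrin (chromosome 9, 111019292 to 111042766), stood at -5.42, -3.87, -7.07 and -5.34 on fresh 1 to 4 and at -4.40, -4.83, -4.79 and -2.82 on FD 1 to 4. Irradiated 1 to 4 gave -4.85, -4.65, -4.78 and -4.28, and heated 1 to 4 gave -6.16, -5.71, -5.44 and -5.10. Ltf was well above background on every FD and irradiated array but only on fresh 2 and heated 4 elsewhere. It passed the filter only through these groups, where it is high. As measured, no heated array reached the lowest FD or irradiated array, and heated minus FD was -1.39 (SE 0.55), or -0.72 (SE 0.77) with slide as a block. Levels at background say only that the signal was low. With each such level raised to the dimmest level that passed on its array, heated minus FD was -0.77, or 1.71-fold, and the groups overlapped. That value is not a lower bound, because with normexp, another background correction, the difference was smaller. As measured, heated minus FD was -0.93 without fresh 2 and FD 4. FD minus fresh was 1.22 as measured (SE 0.55), 0.67 without fresh 3 and 0.75 without FD 4, and 0.57 with the background levels raised. Irradiated minus fresh was 0.79 as measured, and with the background levels raised 0.14, from -0.21 within slide 1 to 0.48 within slide 2.

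Lcn2 encodes lipocalin, which binds the iron carriers of bacteria (chromosome 2, 32384637 to 32387739). Its levels were -3.91, -3.21, -3.93 and -3.74 on fresh 1 to 4, and -3.21, -3.69, -3.49 and -2.72 on FD 1 to 4. On irradiated 1 to 4 they were -3.81, -3.48, -3.60 and -3.36, and on heated 1 to 4 -4.40, -3.76, -4.13 and -3.91. Its heated arrays all lay below its FD arrays, by -0.77 on average (SE 0.21), 1.71-fold, or -0.72 (SE 0.31) with slide as a block. The second probe of Lcn2 was not well above background on any of the 16 arrays. Lcn2 correlated with Ltf at r = 0.85 (rho 0.94) and with S100a9 at 0.88 (rho 0.85), and at 0.72 and 0.79 without fresh 2 and FD 4.

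The stretches before the starts of these 4 genes are shown because their levels moved together across animals. They are the 250 bases upstream of each RefSeq start in GRCm38.p6, read 5′ to 3′ on the gene's strand, with capitals at matches to a short motif on either strand.
S100a8, chr3:90668821-90669070, plus strand: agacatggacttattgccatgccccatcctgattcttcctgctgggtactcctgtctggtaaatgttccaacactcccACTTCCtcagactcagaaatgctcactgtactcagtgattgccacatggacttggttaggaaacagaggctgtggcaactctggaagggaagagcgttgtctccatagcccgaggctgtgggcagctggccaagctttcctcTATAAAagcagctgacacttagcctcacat
S100a9, chr3:90695722-90695971, minus strand: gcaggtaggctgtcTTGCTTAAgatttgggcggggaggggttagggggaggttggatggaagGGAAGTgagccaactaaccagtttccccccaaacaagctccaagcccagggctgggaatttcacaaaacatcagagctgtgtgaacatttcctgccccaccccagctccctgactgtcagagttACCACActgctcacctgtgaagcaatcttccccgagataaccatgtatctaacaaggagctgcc
Lcn2, chr2:32387740-32387989, minus strand: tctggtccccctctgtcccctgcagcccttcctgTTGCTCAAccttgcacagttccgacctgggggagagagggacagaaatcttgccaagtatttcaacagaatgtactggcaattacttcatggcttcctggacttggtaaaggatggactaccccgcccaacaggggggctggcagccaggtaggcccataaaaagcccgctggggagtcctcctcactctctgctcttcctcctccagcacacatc
Ltf, chr9:111019042-111019291, plus strand: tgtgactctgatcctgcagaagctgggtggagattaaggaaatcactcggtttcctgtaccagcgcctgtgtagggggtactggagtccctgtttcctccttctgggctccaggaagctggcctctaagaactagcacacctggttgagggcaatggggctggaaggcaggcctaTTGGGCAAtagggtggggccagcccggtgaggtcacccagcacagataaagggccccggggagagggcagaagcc
The motifs searched for, on both strands, were the ETS core GGAAGT (reverse ACTTCC), the C/EBP motif TTGCNNAA (reverse TTNNGCAA), the Runx motif TGTGGT (reverse ACCACA) and the TATA box TATAAA (reverse TTTATA). None of the matches shown overlap. The C/EBP motif stood in the windows of Lcn2, S100a9, Ltf and Ngp, 4 of the 10 genes, and in 9.6% of 27025 windows of the same length. S100a8, S100a9, Elane, Mpo and Lrg1 held the ETS core, 5 of 10 genes and 5401 of the 27025 windows. S100a9 and Gzma held the Runx motif (14.2% of all windows), and S100a8 the TATA box (3504 of 27025 windows), 30 to 25 bases before its start. A match is a run of letters, not a measured binding site.

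Camp, the gene of the cathelicidin antimicrobial peptide (chromosome 9, 109847377 to 109849456), did not follow Ltf and Lcn2 on fresh 2. It stood at -2.89, -2.60, -2.34 and -2.35 on fresh 1 to 4, at -2.48, -2.80, -2.53 and -1.43 on FD 1 to 4, at -2.69, -2.66, -2.56 and -2.23 on irradiated 1 to 4 and at -2.54, -2.69, -2.29 and -2.46 on heated 1 to 4. FD 4 alone stood out, and the groups overlapped in every comparison. The 4 group means lay between -2.55 and -2.31. Heated minus FD was -0.18 (SE 0.23), -0.52 (SE 0.32) with slide as a block, and 0.11 with fresh 2 and FD 4 left out. Camp and Lcn2 correlated at r = 0.51 (rho 0.14), which was 0.03 without fresh 2 and FD 4.

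Ngp, the neutrophilic granule protein gene, lies near Ltf and Camp on chromosome 9 (110419808 to 110423012). It was well above background on FD 4 only, at -4.04, and the other 15 arrays lay between -7.35 and -5.34 without passing. Since fresh, irradiated and heated arrays were all at background, Ngp gave no fold.

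The primary granule genes gave small or poorly measured differences. Elane, neutrophil elastase (chromosome 10, 79886312 to 79888216), stood at -2.42, -2.05, -2.42 and -2.27 on fresh 1 to 4 and at -2.27, -2.36, -2.29 and -2.39 on FD 1 to 4. It was -2.47, -2.48, -2.55 and -2.55 on irradiated 1 to 4, and -2.50, -2.41, -2.63 and -2.52 on heated 1 to 4. Its irradiated arrays lay below all fresh and all FD arrays, and its heated arrays below all FD arrays. The irradiated minus fresh difference was -0.22 (SE 0.08), or 1.17-fold, and heated minus FD -0.18 (SE 0.08). With slide as a block heated minus FD was -0.09 (SE 0.1). Elane was also the steadiest of the 8 tested genes: its residual SD within groups was 0.10, and 28.3% of all genes had a smaller one.

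Mpo, which makes hypochlorous acid from hydrogen peroxide (chromosome 11, 87793784 to 87804412), was well above background on fresh 2, FD 2, FD 3, FD 4 and heated 3. Its FD arrays stood at -5.23, -4.90, -4.62 and -4.48 and its irradiated arrays at -7.12, -5.62, -5.76 and -5.40. No irradiated array passed, and neither did the FD array at -5.23. With each irradiated array at the higher of its own signal and the dimmest signal that passed on that array, FD was 1.59-fold higher. That value is not a lower bound, because the FD mean keeps the level that did not pass as measured. The fresh arrays lay between -5.57 and -5.19 and the heated arrays between -5.86 and -4.92.

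Lrg1 encodes a leucine-rich secreted glycoprotein that neutrophils store and that endothelium and liver also make (chromosome 17, 56119678 to 56121946). It stood at -4.92, -4.54, -4.45 and -4.97 on fresh 1 to 4, at -4.34, -4.78, -4.44 and -5.02 on FD 1 to 4, at -4.47, -4.32, -4.99 and -4.92 on irradiated 1 to 4, and at -5.78, -6.25, -5.03 and -5.46 on heated 1 to 4. As measured, every heated array lay below every array of the other groups, but only heated 3 and 4 were well above background. Its other 3 group means lay within 0.08 of each other, from -4.72 to -4.64. Heated minus FD was -0.98 as measured (SE 0.24), and -0.71 (SE 0.34) with slide as a block. With heated 1 and 2 raised to the dimmest level that passed on each, heated minus FD was -0.42, or 1.34-fold, and the groups overlapped. On that footing heated minus irradiated was -0.39 (-0.11 within slide 2) and heated minus fresh -0.34 (-0.35 within slide 2). With the normexp background correction heated minus FD was -0.18, so 1.34-fold is not a lower bound.

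Gzma, granzyme A (chromosome 13, 113093824 to 113100981), went the other way. Its levels were -4.40, -3.22, -4.20 and -4.96 on fresh 1 to 4 and -4.68, -5.43, -5.07 and -5.16 on FD 1 to 4. They were -5.23, -4.71, -4.95 and -4.69 on irradiated 1 to 4 and -4.08, -3.42, -3.00 and -3.95 on heated 1 to 4. Gzma passed the filter only through the fresh and heated groups, where it is high. All heated arrays stood above all FD and irradiated arrays, while the fresh arrays overlapped with the 3 other groups. Heated minus FD was 1.47 (SE 0.32), 2.77-fold, and 1.78 (SE 0.45) with slide as a block. Heated minus irradiated was 1.28 (SE 0.32), and 1.21 within slide 2. FD 2 and irradiated 1 did not pass but already lay above the dimmest levels that passed there (-5.44 and -5.36). Raising background levels therefore could not change these values and says nothing about them. With normexp heated minus FD was 0.61. Heated minus fresh was 0.58 (0.97 within slide 2, and 0.33 to 0.91 with 1 array left out) and FD minus fresh -0.89 (SE 0.32, and -1.14 to -0.56 with 1 array left out).

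**Figure D2:**
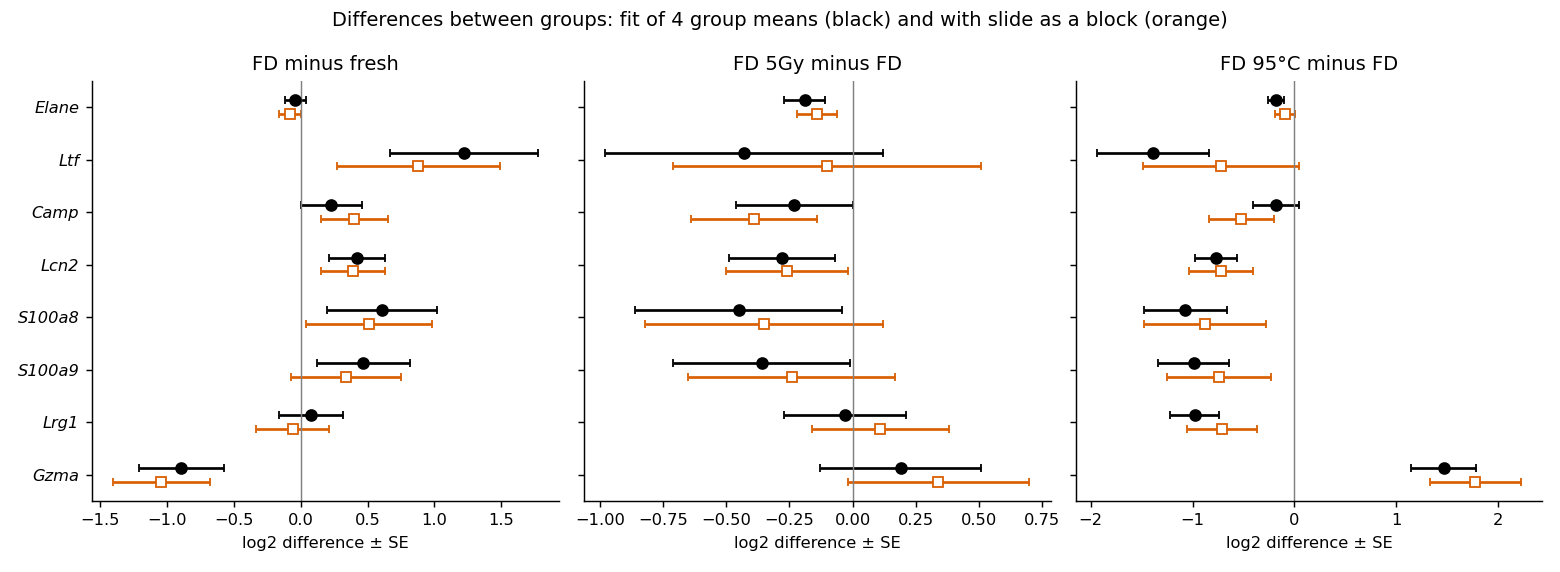
Log2 differences with their SE (horizontal axis) of the 8 tested genes (vertical axis) in 3 comparisons, from the fit of 4 group means (black circles) and with slide as a block (orange squares). Heated minus FD lies below 0 for 7 genes and at 1.47 for Gzma, and slide as a block brings Ltf from -1.39 to -0.72. Differences are as measured, with Ltf and Lrg1 at background on some heated arrays.

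Counted over the 8 tested genes, heated minus FD was negative for 7 and positive for Gzma, with a median of -0.88 against 0.018 over all 26477 genes and features tested. In limma, adjusted by the Benjamini-Hochberg method over all of them at a threshold of 0.05, Gzma passed as higher and Lrg1 as lower, where 3.86% of all genes passed, 2.5% as higher and 1.36% as lower. Nothing is read from these shares, because the genes were chosen on the same comparison. Moreover, Ltf, Lrg1 and Gzma passed the filter only through groups where they are high. As measured, the heated and FD arrays did not overlap for 7 of the 8 genes, with Gzma higher and Elane, Lcn2, S100a8, S100a9, Ltf and Lrg1 lower. Of all genes 20.3% had groups that did not overlap, 11.4% higher and 8.89% lower. With background levels raised, Ltf and Lrg1 overlapped and 5 of the 8 genes, whose levels this left unchanged, did not.

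Both calls depended on single arrays. Gzma no longer passed without FD 2, FD 3, heated 2 or heated 3, where its difference stayed between 1.27 and 1.48. Lrg1 no longer passed without FD 1, FD 2, FD 3, heated 1, heated 2 or heated 4, with differences between -1.04 and -0.78. Leaving out fresh 2 brought the number of passing genes to 5, while over all 26477 genes and features the calls went from 1021 to 1508. With slide as a block, neither Gzma nor Lrg1 passed.

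No member passed in the other comparisons. FD minus fresh was positive for 6 of 8 genes (median 0.33, against 0.018 over all genes), none passed, and the groups overlapped for all 8 (4.15% of all genes had groups that did not). At the same threshold 0% of all genes passed, with 2627 at an unadjusted p under 0.05. Irradiated minus FD was negative for 7 of 8 (median -0.25), with Elane the only gene whose groups did not overlap (4.6% of all genes) and again 0% called, with 1913 genes at an unadjusted p under 0.05. Irradiated minus fresh had a median of 0.08 and no call (1.37% of all genes), and Elane alone did not overlap (9.08%). Heated minus fresh had a median of -0.29 and no call (2.93%), and Lrg1 alone did not overlap as measured (11.3%). Heated minus irradiated had a median of -0.55 and no call (1.01%), and Gzma, Ltf and Lrg1 did not overlap as measured (13.1%). With background levels raised, only Gzma, whose levels this left unchanged, kept this among the 3. The comparisons with FD share the FD arrays, and those with fresh share the fresh arrays.

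**Figure D3:**
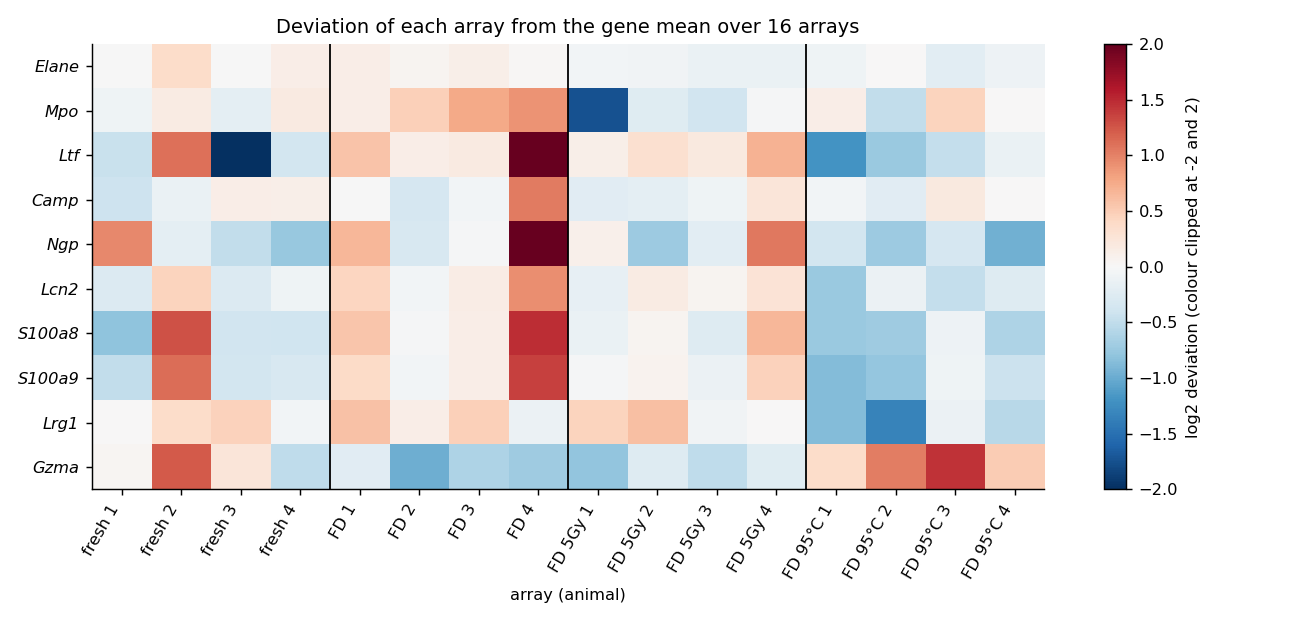
Deviation of each of the 10 genes (rows) on each of the 16 arrays (columns) from its mean over all arrays, in log2 units, with colour clipped at -2 and 2. FD 4 is the highest array for 7 of the 10 genes, and fresh 2 is high for S100a8, S100a9, Ltf and Gzma.

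Single animals stood apart within their groups. The mean deviation of the 6 tested neutrophil genes (Elane, Ltf, Camp, Lcn2, S100a8 and S100a9) was 1.16 on FD 4 and 0.70 on fresh 2, and between -0.61 and 0.37 on the other arrays. FD 4 was the highest array for 7 of the 10 genes, and all 6 neutrophil genes lay above their median there and on FD 1 and FD 3. All 4 heated arrays had a mean below 0, from -0.61 to -0.19. The residual SD within groups was 0.85 for Ltf, 0.62 for S100a8 and 0.54 for S100a9, against a median of 0.15 over all genes. Among genes within 0.5 of the same mean level, 98.6%, 98.0% and 98.5% had a smaller SD than Ltf, S100a8 and S100a9. For Lcn2 and Lrg1 that share was 64.5% and 57.3%. The r of Gzma was -0.17 with S100a9 and -0.41 with Lrg1, and -0.46 and -0.59 without fresh 2 and FD 4.

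Genes outside the 10 were ranked by their correlation over the 16 arrays, among 15985 genes with a symbol. Closest to the mean of the 6 neutrophil genes were Klhdc4 (r = 0.81), Cers6 (0.77), Stfa2l1, Ifitm6, Slc16a14, Chil3 and Zfp13 (0.75 each) and Ptov1 (0.74). Stfa2l1 is a stefin and Chil3 a chitinase-like protein, both abundant in neutrophils and related myeloid cells. Chil3 stood at -2.94 on FD 4, its highest array, and its r was 0.51 without fresh 2 and FD 4. Stfa2l1 was highest on FD 2 (-1.94) and then fresh 2 (-2.60). Closest to Gzma were Tmem184b (0.87), Lrif1, Bod1l, P2ry1 and Pigg, and closest to Lrg1 were D930028M14Rik and Sulf1 (0.89 each), Cdk2, Calcr and Irs3.

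Other genes of the same cells were then examined, from 20 marker lists of 223 genes, of which 219 were on the array and 144 were tested. In these lists a gene is said to rise or fall where limma's adjusted p was under 0.05. The lists were chosen with earlier results of these data known, so their calls are a description. Over all genes, 3.86% passed in heated minus FD and 2.93% in heated minus fresh. The share was 1.37% in irradiated minus fresh and 1.01% in heated minus irradiated. Of 4 tested primary granule genes besides the members, none passed in any of the 6 comparisons, and heated minus FD had a median of 0.00. Prtn3 and Ctsg, proteases of the same granule as Elane, had FD means of -3.35 ± 0.41 and -4.17 ± 0.18 and heated means of -3.22 ± 0.31 and -4.32 ± 0.38 (SD, n = 4). Of 9 tested secondary and tertiary granule or surface genes none passed either. With slide as a block Mmp9, a matrix metalloprotease of tertiary granules, passed as lower in heated minus fresh (-0.62, adjusted p = 0.0484 in limma) and in heated minus irradiated (-0.69, adjusted p = 0.0484). Their heated minus FD median was -0.14, with 3 of 9 positive, and the list mean reached 0.40 on FD 4. Hp, haptoglobin, had an FD mean of -4.41 ± 0.55 and a heated mean of -4.55 ± 0.99. The granulocyte genes Ms4a3, Fcnb, Prss34, Cd177, Itgb2l, Padi4, Il1b and Mrgpra2b were not well above background on any array, and Mmp8, Cxcr2, Retnlg, Wfdc21 and Gfi1 on 1 array each.

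For Gzma the companion genes were mostly at background. Of 15 cytotoxic lymphocyte genes, Gzmc, Gzmk, Nkg7, Klrd1, Klrk1, Klre1 and Ncr1 were well above background on no array, Gzmb on 1 and Ccl5 on 2. Prf1, perforin, passed on 13 arrays, with means of -5.06 ± 1.31 in FD and -4.10 ± 0.19 in heated (SD, n = 4), and was not called. It stood at -5.84, -6.49, -3.97 and -3.92 on FD 1 to 4, and only 2 of these arrays passed. In heated minus FD, 2 of the 4 tested cytotoxic genes were positive, Prf1 (0.96, SE 0.46) and Tbx21 (0.55, SE 0.5). Ctsw (-0.43, SE 0.13) and Klrb1c (-0.18, SE 0.11) were negative. None of the 4 tested cytotoxic genes and none of the 6 tested T cell genes passed in any comparison. Cd3e, a subunit of the T cell receptor complex, had means between -2.32 and -2.11.

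**Figure D4:**
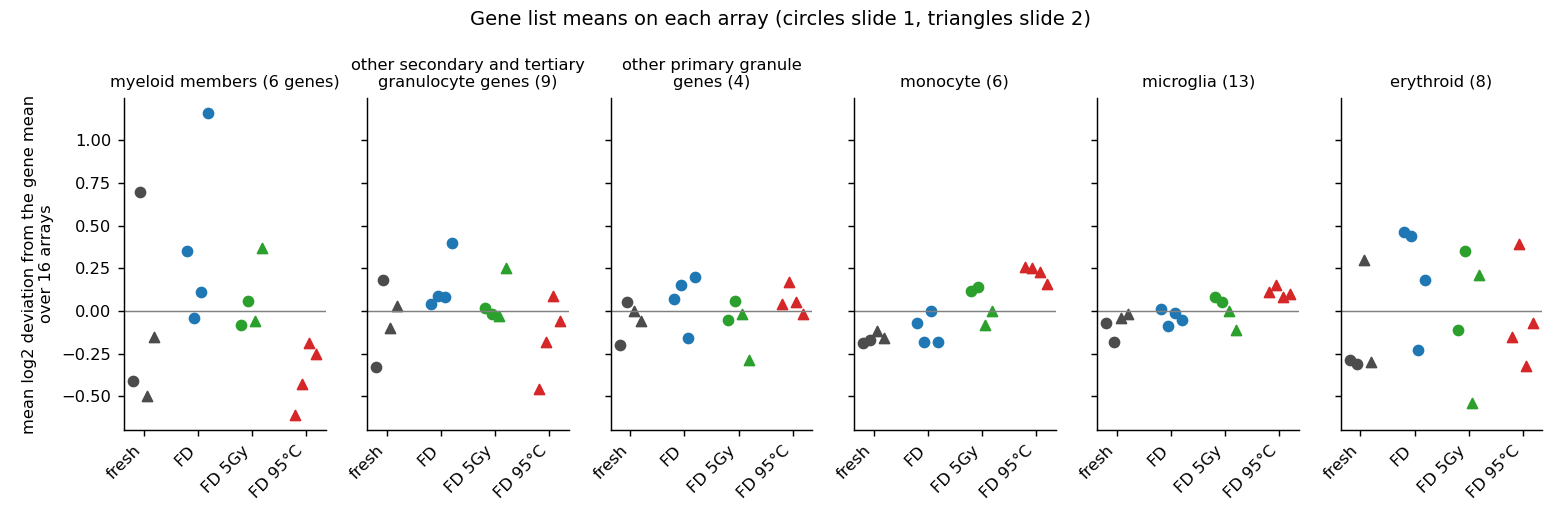
Mean log2 deviation from the gene mean over 16 arrays (vertical axis) of the 6 tested neutrophil members and of 5 marker lists, by group (horizontal axis), with the number of tested genes in brackets. Circles are arrays of slide 1 and triangles of slide 2. The 6 members and the other secondary and tertiary granule genes are both highest on FD 4, and the monocyte list lies between 0.16 and 0.26 on the heated arrays.

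Markers of other blood and vessel cells did not share one order. All 6 tested monocyte genes were positive in heated minus FD (median 0.37), and Lyz2, a lysozyme, rose by 0.61 (adjusted p = 0.0482). Monocyte list means ran from 0.16 to 0.26 on heated arrays and from -0.18 to 0.00 on FD arrays. Among 13 microglia genes Trem2, a phagocytic receptor, rose by 0.27 (adjusted p = 0.0429), and the B cell precursor gene Vpreb3 rose by 0.74 (adjusted p = 0.0481). Of the 4 tested B cell genes 3 were positive (median 0.22), and Vpreb1 was negative (-0.08, SE 0.15). The growth factor receptors Flt1 (0.40, adjusted p = 0.0441) and Kdr (0.28, adjusted p = 0.0378) rose among 12 endothelial genes, of which 8 were positive. Mfsd2a (-0.35, adjusted p = 0.0548) and Cldn5 (-0.34, adjusted p = 0.0726) of the same list were negative without passing. The chemokine Cxcl12 rose by 0.73 (adjusted p = 0.0107) and the leukocyte adhesion molecule Vcam1 by 0.35 (adjusted p = 0.0126). Of the 14 tested acute phase and leukocyte adhesion genes, 7 were positive (median 0.02). Postn, a matrix protein of the meninges, fell by 0.49 (adjusted p = 0.0335), and the cartilage collagen Col2a1 fell by 0.40 (adjusted p = 0.0189). Of the 10 tested meninges genes 2 were positive (median -0.16), and of the 5 tested bone and cartilage genes 4 were positive (median 0.15). With slide as a block none of the 9 genes that rose or fell passed in heated minus FD. The differences were then 0.78 for Cxcl12, 0.77 for Lyz2, 0.54 for Vpreb3, 0.29 for Flt1, 0.26 for Kdr, 0.25 for Trem2, 0.23 for Vcam1, -0.36 for Col2a1 and -0.19 for Postn. Cxcl12 and Vcam1 held with any single array left out, Col2a1 did not without FD 2 or heated 2, and the other 6 were lost without any of 7 to 12 of the arrays, heated 1 and heated 2 among them for each.

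Against fresh, heated animals had higher Cxcl12 (0.75, adjusted p = 0.00861), Trem2 (0.38, adjusted p = 0.0122) and Abcb1a (0.24, adjusted p = 0.0373) and lower Col2a1 (-0.42, adjusted p = 0.0143), and these also passed with slide as a block. The block added Ly6c2 (0.75, adjusted p = 0.0218) and Ly6c1 (0.76, adjusted p = 0.0313), as well as Mmp9 above. Kdr, Flt1, Csf1r, P2ry12, Clec10a, Vpreb3, Hdc, Il6ra, Cebpd and Vcam1 were also higher there, by 0.27 to 0.94, and the muscle gene Actn3 lower (-0.59), all without passing under the block. The Actn3 call was lost without fresh 1, the array high in Acta1, and without heated 2 or heated 4. Heated exceeded irradiated for Cxcl12 (0.69, adjusted p = 0.0195), which also passed under the block (adjusted p = 0.0414). Kdr passed there as well (0.32, adjusted p = 0.0451), but not under the block (0.30, adjusted p = 0.108) or without any of 10 single arrays, all heated arrays among them. Irradiated exceeded fresh for Cebpd (0.41, adjusted p = 0.0243), a transcription factor of the acute phase, and for Nfkbia (0.29, adjusted p = 0.0468), both also under the block. In FD minus fresh and irradiated minus FD no list gene passed. Of the 28 calls of 18 list genes, 5 held with any single array left out: Cxcl12 in heated minus FD and heated minus fresh, Vcam1 in heated minus FD, and Trem2 and Col2a1 in heated minus fresh. The 18 became 10, 5 and 9 without heated 1, heated 2 and heated 4.

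Blood itself was measured through 8 tested erythroid genes, none of which passed. Their FD minus fresh median was 0.47, with 7 of 8 positive, and their heated minus FD median -0.26, with 2 of 8 positive. List means ran from -0.31 to 0.30 on fresh, -0.23 to 0.46 on FD, -0.54 to 0.35 on irradiated and -0.32 to 0.39 on heated arrays. Alas2, the erythroid enzyme of haem synthesis, stood at 0.63 on fresh 2 and 2.35 on FD 4, the arrays highest in S100a9. It was low on the first of these and high on the second. Of the other lists, no platelet, pituitary, skin, hindbrain or neuron gene passed in any comparison. The part of blood, slide or neighbouring tissue in the differences of the 10 genes was not tested. Without the 4 arrays low in hindbrain genes, heated minus FD was 1.43 for Gzma, -0.80 for Lrg1, -1.80 for Ltf, -1.14 for S100a8, -1.10 for S100a9 and -1.12 for Lcn2, and neither Gzma nor Lrg1 passed.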

How the data were processed

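RNA from the brains of 16 neonates (4 groups of 4) was hybridised to 1-colour arrays. The deposited scanner files hold spot intensity that the authors extracted (Agilent Feature Extraction, version 11.0.1.1, per the file headers and the submitters' processing notes) after background subtraction and without scaling across arrays. In addition, the deposited value table holds log2 values of 31313 probes, with column medians of 9.33 to 9.35. Its scale was found from the scanner values, and its normalization and centring are not given in the sources used here, so it served as an alternative only. It holds 5 of the 10 genes.

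Control spots and spots with outlier flags (84 to 169 on each array) were left out, and 0 spots were saturated. Spots of a probe were averaged, the array's own 75th percentile (720 to 958 intensity units) was subtracted on the log2 scale, and probes flagged well above background throughout at least 1 group were kept. The brightest probe stood for a gene. Of 56605 probes, 32994 had a RefSeq symbol, and 26477 genes and features were tested with limma 3.58.1 in R 4.3.3 (4 group means, 12 residual degrees of freedom, two-sided, Benjamini-Hochberg). The fit was tested on simulated data. The number of arrays limits the precision.

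The 10 genes and all marker lists were chosen with earlier results of these data known. Named besides them are the called list genes (at most 4 per list by p), at most 3 defining genes of lists without a call, and the top 8 or 5 genes by correlation. Further genes at background, Ly6c2, Ly6c1, Mmp9, Ctsw, Mfsd2a, Cldn5, Vpreb1, Krt14, Acta1, Hoxb5 and Alas2 were named after their values were seen. Alternatives were quantile and median scaling, normexp (on median spot signals, with an offset of 50), other filters and probe rules, the value table, slide or replicate number as a block, only the groups compared and leaving out arrays. Leaving out fresh 2 with FD 4, leaving out the 4 arrays low in hindbrain genes, and raising levels at background to the dimmest that passed were chosen after seeing the data.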

Additional observations from a re-analysis of the deposited data

Results flagged for a closer look

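S100a9 on fresh 2 stood at 0.65, while the other 3 fresh arrays lay between -0.95 and -0.79. The gap to the nearest array was 0.896 of the group's range, above Dixon's critical value for 4 samples. It was the only such case among 40 gene and group combinations of the 10 genes, and at a chance of about 1 in 20 about 2 such cases would arise, so nothing is read from it.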

How the results depend on the processing

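Heated minus FD, with 2 of the 10 genes called, was the comparison most open to the processing. It had 1 call, Gzma, with normexp, with no filter and with only the groups compared. The filter on all 16 arrays left 5 of the genes tested, without Gzma and Lrg1, and its 1 call was Lcn2. There were 0 calls in the authors' value table (5 of the genes), with slide as a block and without the 4 arrays low in hindbrain genes. Leaving out 1 array gave 0 to 5 calls in heated minus FD, 0 to 1 in heated minus fresh (1 without heated 3, Lrg1) and 0 to 1 in heated minus irradiated (1 without fresh 2, Gzma). Heated minus irradiated also had 1 call with only the groups compared and 1 without fresh 2 and FD 4. Over all genes, heated minus fresh had 412 calls without heated 3. Heated minus irradiated had 329 without fresh 2, 725 with only the groups compared and 356 without fresh 2 and FD 4. The 18 list genes called became 4 with no filter, 10 in the authors' table, 9 with slide as a block, 0 without the arrays low in hindbrain genes and 5 to 23 with 1 array left out. Over all genes, the 1021 calls of heated minus FD became 609 with no filter, 615 with median centring, 2026 with only the groups compared, 12 without the arrays low in hindbrain genes, 181 to 1553 with 1 array left out, and 0 in the authors' table or with slide as a block. The cause of these changes was not tested. With normexp, heated minus FD was 0.61 for Gzma, -0.18 for Lrg1, -0.41 for Ltf and -0.33 for Lcn2. Of the single-gene values, 1358 stayed within the spread between replicates and 16 moved further. Some differences changed sign between settings. Camp in heated minus FD went from -0.18 to 0.11 without fresh 2 and FD 4. Ltf in heated minus fresh went from -0.17 to 0.61 within slide 2. Replicate numbers did not pair the arrays: same-numbered arrays of different groups correlated at -0.39 to 0.38 (median 0.03, 24 pairs), other arrays at -0.51 to 0.55, and 6 of 16 arrays were closest to their own number. The fit with a replicate block called 3 of the 10 genes in heated minus FD, adding Lcn2, and 1239 of all 26477 genes and features. Ltf, Lrg1, Gzma, Mpo and Ngp were dim, with some arrays not well above background.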
